A study of Rattus norvegicus with 6 samples.

Results

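PL8177 is a selective agonist of the melanocortin 1 receptor, and the genes described here are those through which such an agonist would be read out in a cell: the melanocortin receptors Mc1r, Mc3r, Mc4r and Mc5r, the hormone precursor Pomc with the accessory proteins Mrap and Mrap2, and the cAMP machinery from the G protein and the adenylyl cyclases to CREB and Mitf. They were chosen as a list of 42 genes and found by symbol. Of these, 38 had a row among the 17388 genes of the tables used here, and 37 had one among the 15108 genes that could be read for placebo T cells.

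Single nuclei were sequenced from the colon of wildtype male Wistar rats, and the counts of T cells and of enterocytes were analysed, with the cell types as the authors assigned them. Sham rats (n = 3) drank water only. Placebo rats (n = 3) drank 5% dextran sulfate sodium (DSS), an agent that damages the lining of the colon, for 3 days. Vehicle capsules were then given by gavage on 4 days. PL8177 rats (n = 3) had the same DSS and capsules that held 50 µg PL8177 per animal, and both kinds of capsule were given 2 times a day, 6 hours apart. The rat was read from the tag in each nucleus name (sham GR12, GR13 and GR15, placebo GR22, GR23 and GR24, PL8177 GR41, GR43 and GR44), since the sample labels do not list the animals.

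Melanocortin receptors couple to the stimulatory G protein, whose alpha subunit is encoded by Gnas. The G protein activates adenylyl cyclases, the cAMP they make releases the catalytic subunits of protein kinase A (PKA) from its regulatory subunits, and the kinase phosphorylates CREB family factors that act with the coactivators Crebbp and Crtc. Phosphodiesterases break cAMP down, anchoring proteins of the Akap family hold PKA in place, and Rapgef proteins exchange the nucleotide of the GTPase Rap, in part as direct cAMP sensors. In melanocytes this route raises Mitf, the factor that sets the pigment program, and in immune cells a rise in cAMP generally dampens activation.

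The tables held 8782 enterocyte nuclei with 304 to 1531 per rat and 1018 T cell nuclei with 19 to 685 per rat. Per rat, enterocyte nuclei held 310927 to 3995627 UMIs (barcoded single RNA molecules) of the 15108 genes shared by all tables, and T cell nuclei held 8070 to 779009. Levels are given below as UMIs per 10000 UMIs of these shared genes, and they are compared only within a gene, since transcript length was not taken into account. The labelled cell types were checked against marker lists. In 8 rats the T cell nuclei held 29.1 to 71.7 UMIs per 10000 from 14 T cell markers, but in rat GR23, which gave 685 of the 802 placebo T cell nuclei, they held 2.72, beside 210 from 16 enterocyte markers. Enterocyte markers also made 21.5 to 97.3 per 10000 in the T cell nuclei of the other 8 rats and 171 to 425 in enterocyte nuclei, while T cell markers made 0.175 to 0.836 in enterocyte nuclei. Of the 14 T cell markers, 11 had UMIs in the T cell nuclei of the placebo rats and 11 in those of the PL8177 rats. The defining markers Cd3d, Cd2 and Cd5 had none in either. They were sparse in the sham and PL8177 T cell nuclei together too, with a UMI in 1.39 to 2.31% of nuclei. There Cd3e had a UMI in 7.41% and Cd247 in 30.6%. Fewer cells of a type among the nuclei labelled T cell and less RNA per cell cannot be told apart in such sums. The placebo T cell table breaks off and holds fewer genes. An earlier analysis of these data had also found the T cell nuclei of a placebo rat low in T cell markers. For the latter reason the T cell to enterocyte comparison below rests on the 6 sham and PL8177 rats. In the T cell nuclei of these rats, T cell markers made 71.7, 37.2 and 37.7 UMIs per 10000 in the sham rats and 37.0, 29.1 and 46.4 in the PL8177 rats, and enterocyte markers 21.5, 89.2 and 46.9 in the sham rats and 63.6, 68.2 and 97.3 in the PL8177 rats. Enterocyte markers thus exceeded T cell markers in each of these rats but GR12, and their part in the results below was not tested. In the placebo rats GR22 and GR24 T cell markers were at 52.2 and 60.1 and enterocyte markers at 34.7 and 29.5.

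No melanocortin receptor could be given a level. Mc1r, the target of PL8177, had no row in any of the 6 tables, and neither had Mc3r and Mc4r, the neural melanocortin receptors, nor Mc5r, the receptor of exocrine glands. The authors kept genes seen in at least 3 cells, so a gene below that limit and a gene missing from their annotation cannot be told apart here. Mrap, the accessory protein that the adrenal receptor needs to reach the cell surface, had a row and no UMI. That was 0 of 8782 enterocyte nuclei, which allows a share of up to 0.0342% (3 nuclei of the total, with an exact binomial upper bound of 0.0420%), and 0 of 216 sham and PL8177 T cell nuclei, which allows up to 1.39% (exact bound 1.69%).

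Pomc, the precursor of the natural melanocortin agonists, and Mrap2, which modulates Mc4r, were at the edge of detection. Pomc had 19 UMIs in 17 of 8782 enterocyte nuclei (0.194%, exact binomial 95% interval 0.113 to 0.310%, counting error only). They came from GR12 with 2 UMIs, GR22 with 9, GR23 with 2, GR43 with 3 and GR44 with 3, and the other 4 rats had none. No UMI of Pomc was found in 1018 T cell nuclei, which allows a share of up to 0.295% (exact bound 0.362%). Without GR23 there were 0 of 333 nuclei, which allows up to 0.901% (exact bound 1.10%), so the cell types could not be told apart at this depth. Mrap2 had 17 UMIs in 16 enterocyte nuclei (0.182%) and 2 UMIs in 2 T cell nuclei (0.196%), both of GR12. As a gauge of free or misplaced RNA, 14 T cell markers had a UMI in 0 to 3.94% of enterocyte nuclei, with a median of 0.0854%. The median nucleus held 1051 UMIs among enterocytes and 742.5 among T cells. Gnas had 2 rows under its symbol, and both were sparse. The first held 20 UMIs in enterocyte nuclei (4 in GR12, 6 in GR22, 5 in GR41 and 5 in GR43) and 4 in T cell nuclei, all of GR23. The second held 102 in enterocyte nuclei, 2 to 28 in each of the 7 rats with any, and 2 in T cell nuclei, both of GR22. In the 6 sham and PL8177 rats neither row of Gnas had a UMI in T cell nuclei. No gene identifier goes with either row, so whether they capture all transcripts of Gnas cannot be told here. Their counts are thus no measure of whether these cells express the G protein.

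**Figure D1:**
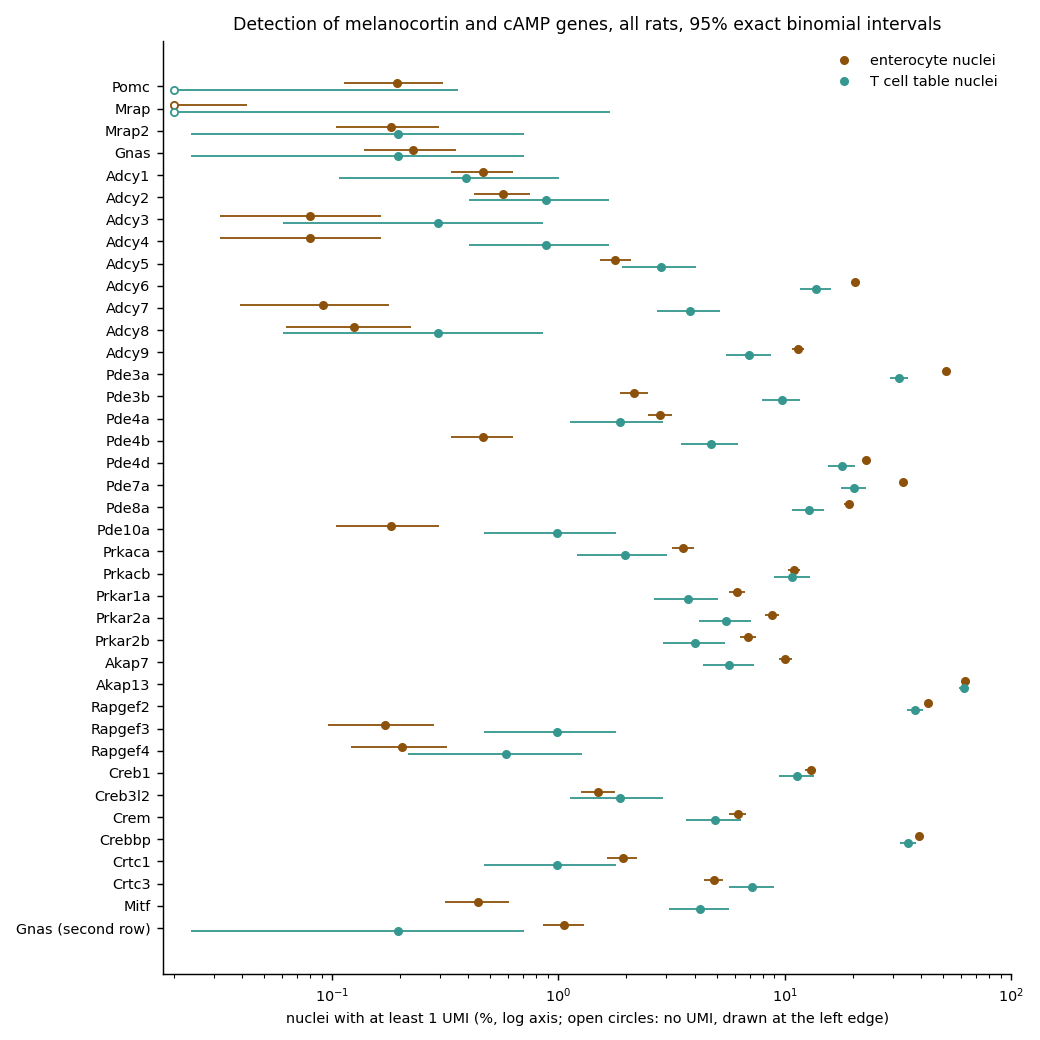
Share of nuclei with at least 1 UMI, in percent on a log axis, for the 38 genes with a row and the second Gnas row, in enterocyte nuclei (brown, n = 8782) and T cell nuclei (teal, n = 1018, of which 685 from GR23, or 216 for Mrap) of all rats. Lines are exact binomial 95% intervals and open circles mark genes with no UMI, so that Mrap lies at the left edge in both cell types and Pomc in T cell nuclei only.

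Below the receptors, 37 of 38 genes had at least 1 UMI in enterocyte nuclei and 36 of 38 in T cell nuclei, with Pomc and Mrap at 0 in the latter. In T cell nuclei 11 of the 38 genes had 10 UMIs or fewer, against 4 in enterocyte nuclei, over 9 rats (6 for Mrap in T cell nuclei). GR23 gave 685 of the 1018 T cell nuclei behind these counts, and without it 14 genes had 10 UMIs or fewer and the first row of Gnas was at 0 too. The 11 over all rats were Pomc, Mrap, Mrap2, the first row of Gnas, the cyclases Adcy1, Adcy2, Adcy3, Adcy4 and Adcy8, and the cAMP sensors Rapgef3 and Rapgef4. The 4 in enterocyte nuclei were Mrap, Adcy3, Adcy4 and Adcy7.

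Which parts of the machinery differed between the cell types was tested with both cell types of the same 6 rats, the rat being a block (edgeR quasi-likelihood, Benjamini-Hochberg adjustment over 8591 genes). Of the 42 genes, 25 had enough UMIs to be tested and 14 passed an adjusted p of 0.05. The filter on low counts took a gene that was high enough in either cell type. The enterocyte levels of Adcy7, Mitf, Pde4b and Pde3b, at most 0.0672, 0.0457, 0.104 and 0.190, were too low for it. A gene this low in enterocytes could enter the test only if it was higher in T cells. Without this filter 14 genes were called too. Mitf, the cyclases Adcy7 and Adcy5, the phosphodiesterases Pde4b and Pde3b and the CREB coactivator Crtc3 were higher in T cells, which was 6 of 25 against 19.1% of all genes tested. Pde7a, Pde8a, Pde3a, Akap13, Akap7, Rapgef2, Crem and Adcy6 were lower in T cells, which was 8 of 25 against 28.5% of all genes. Both counts are near the background share, and the median log2 fold change was -0.16 over the 25 genes and -0.15 over all genes. Genes of both directions stood among the cyclases, the phosphodiesterases and the CREB factors with Mitf. The direction of a small difference depended on the scaling. DESeq2 placed all genes 0.42 higher on the log2 scale than edgeR, and edgeR on total UMIs without its TMM scaling placed them 0.80 higher. The levels given per rat below are on the scale of total UMIs, so a level can be closer to even, or on the other side, than the edgeR fold change of the same gene. Of the genes called over the whole table, 40.1% were higher in T cells by edgeR, 59.5% by DESeq2 and 73.6% without TMM. Pde4a, Prkar1a, Prkar2a and Crebbp, which were not called by edgeR, changed sign with DESeq2. Without TMM the signs of Crebbp, Prkar1a, Prkar2a, Prkar2b and Adcy9 changed, and in T cell marker nuclei those of Prkacb and Pde4d. The direction and the call were the same in edgeR, DESeq2, edgeR without TMM and edgeR on T cell marker nuclei for 10 genes, 6 higher and 4 lower in T cells.

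**Figure D2:**
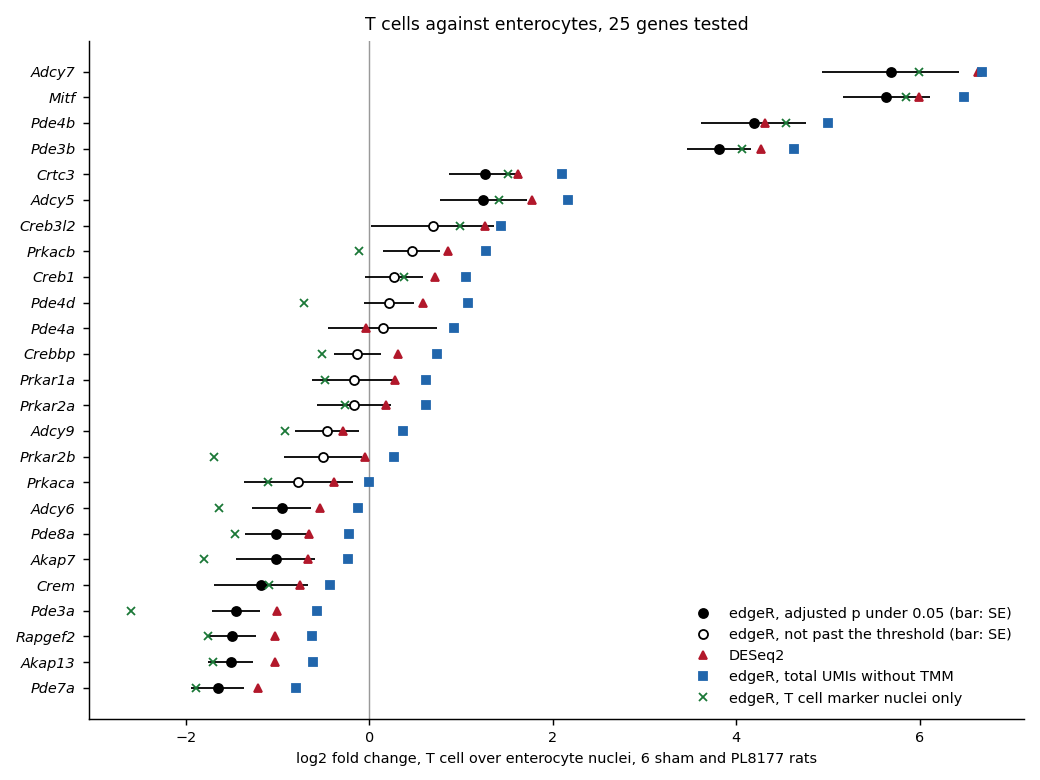
Log2 fold change of T cell over enterocyte nuclei for the 25 genes tested in 6 sham and PL8177 rats. Black circles are edgeR with its SE (filled where the adjusted p was under 0.05), red triangles DESeq2, blue squares edgeR on total UMIs, and green crosses edgeR on T cell nuclei with T cell markers. Adcy7, Mitf, Pde4b and Pde3b lie at 3.81 or above on each scale shown, and Pde7a, Akap13, Rapgef2 and Pde3a lie below 0 on each.

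Among the cyclases, Adcy7, the isoform known from blood cells, stood apart. Its level in T cell nuclei was 0.340, 4.96 and 1.53 UMIs per 10000 in the sham rats GR12, GR13 and GR15 and 0.416, 0.331 and 2.44 in the PL8177 rats GR41, GR43 and GR44. These levels rest on 24 UMIs, and the 4.96 of GR13 on 4 of them. In enterocyte nuclei it was 0 to 0.0672 in the same rats, on 7 UMIs, so the groups did not overlap. The log2 fold change was 5.69 ± 0.75 (SE, edgeR adjusted p = 4.32e-13). Adcy5, a cyclase inhibited by calcium and best known from brain and heart, was higher in T cell nuclei in 6 of 6 rats, at 0.166 to 1.66 against 0.0375 to 0.823, with a log2 fold change of 1.24 ± 0.48 (edgeR adjusted p = 0.0218). This call was lost without GR12 (adjusted p = 0.201) and without GR41 (0.0982). Adcy6, a close relative of Adcy5, was lower in T cells by edgeR (-0.96 ± 0.32, adjusted p = 0.00758) but not by DESeq2 (-0.54, adjusted p = 0.204), and the call was also lost without GR41 (edgeR adjusted p = 0.0509) or GR43 (0.0643). Its levels overlapped at 0.832 to 2.48 against 1.28 to 1.83. Adcy9, the most divergent membrane cyclase, was not called (-0.46 ± 0.35, edgeR adjusted p = 0.279). The UMIs of Adcy7 in enterocyte nuclei came from GR13 with 1, GR43 with 1 and GR44 with 5, and the other 3 rats had none.

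The phosphodiesterases split into both directions. Pde3b, which cGMP inhibits and which serves insulin signalling in fat and liver, had T cell levels of 3.96, 3.72 and 5.72 UMIs per 10000 in the sham rats and 2.91, 2.32 and 1.47 in the PL8177 rats. Its enterocyte levels were 0.190, 0.137 and 0.124 in the sham rats and 0.0807, 0.118 and 0.0806 in the PL8177 rats. The groups did not overlap in any of the 6 rats, and the log2 fold change was 3.81 ± 0.35 (edgeR adjusted p = 3.97e-26). Pde4b, the cAMP-specific enzyme of immune cells, had T cell levels of 1.66, 0 and 0.381 in the sham rats and 1.25, 1.16 and 0 in the PL8177 rats, against 0.00250 to 0.104 in enterocyte nuclei. It was higher in T cell nuclei in 4 of 6 rats, and in the other two no UMI was found among 8070 and 20462 UMIs, where 3 UMIs would be a level of 3.72 and 1.47. Its log2 fold change was 4.19 ± 0.57 (edgeR adjusted p = 4.64e-12).

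Its paralogue Pde3a went the other way from Pde3b. The T cell levels of Pde3a were 4.09, 2.48 and 5.34 UMIs per 10000 in the sham rats and 3.33, 5.96 and 3.91 in the PL8177 rats. Its enterocyte levels were 6.76, 6.90 and 5.61 in the sham rats and 9.76, 5.58 and 6.54 in the PL8177 rats. It was lower in T cell nuclei in 5 of 6 rats, at -1.45 ± 0.26 by edgeR (adjusted p = 1.87e-07) and -1.01 by DESeq2 (adjusted p = 0.00202). Pde7a, a cAMP-specific enzyme with high affinity, had T cell levels of 2.85, 3.72 and 0.763 in the sham rats and 2.08, 1.49 and 2.93 in the PL8177 rats, against 3.22 to 4.17 in enterocyte nuclei. It was lower in T cell nuclei in 5 of 6 rats, and its log2 fold change was -1.65 ± 0.29 (edgeR adjusted p = 8.04e-08). Pde8a, another enzyme of high affinity, was lower by edgeR (-1.02 ± 0.34, adjusted p = 0.00696) and not by DESeq2 (-0.65, adjusted p = 0.169) or without GR43 (edgeR adjusted p = 0.0523). Pde4d and Pde4a were not called, at 0.21 ± 0.27 and 0.15 ± 0.60 (edgeR adjusted p = 0.544 and 0.861). On total UMIs Pde4d was higher in T cells, at 1.07 (edgeR adjusted p = 0.000116), and in T cell marker nuclei it was at -0.71 (adjusted p = 0.168).

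No subunit of PKA passed the test, though single subunits did under other settings. Of the catalytic subunits, Prkacb had a log2 fold change of 0.46 ± 0.31 (edgeR adjusted p = 0.217; DESeq2 0.85, adjusted p = 0.0491, and 1.27 on total UMIs, adjusted p = 7.37e-05) and Prkaca of -0.77 ± 0.59 (edgeR adjusted p = 0.285). The regulatory subunits Prkar1a, Prkar2a and Prkar2b lay between -0.50 and -0.16, with edgeR adjusted p of 0.333 to 0.800. In T cell marker nuclei Prkar2b was lower at -1.70 (adjusted p = 0.0223). Of the anchors, Akap13, a large scaffold that holds PKA, had T cell levels of 10.2, 9.91 and 8.77 UMIs per 10000 in the sham rats and 11.2, 6.13 and 8.80 in the PL8177 rats. Its enterocyte levels were 15.3, 11.7 and 11.1 in the sham rats and 19.3, 14.1 and 11.1 in the PL8177 rats, so that each of the 6 rats had the lower level in its T cell nuclei. The log2 fold change was -1.51 ± 0.25 (edgeR adjusted p = 8.47e-09; DESeq2 -1.03, adjusted p = 1.48e-06). Akap7, a small membrane-bound anchor, passed only narrowly (-1.02 ± 0.43, edgeR adjusted p = 0.0383) on 21 T cell UMIs, at 0 to 1.47 against 0.511 to 0.689, and DESeq2 did not call it (adjusted p = 0.337). Its edgeR call was lost without GR12, GR13, GR15, GR41 or GR43, each left out alone (adjusted p = 0.0678 to 0.268).

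Of the Rap exchange factors only Rapgef2 could be tested. Its T cell levels were 4.26, 6.20 and 4.58 UMIs per 10000 in the sham rats and 4.57, 3.48 and 1.95 in the PL8177 rats, against 5.33 to 6.70 in enterocyte nuclei. It was lower in T cell nuclei in 5 of 6 rats, by -1.49 ± 0.26 (edgeR adjusted p = 1.16e-07; DESeq2 -1.03, adjusted p = 6.18e-05). Rapgef3 and Rapgef4, also known as Epac1 and Epac2, had 5 and 4 UMIs in the T cell nuclei of these rats and 7 and 14 in their enterocyte nuclei.

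**Figure D3:**
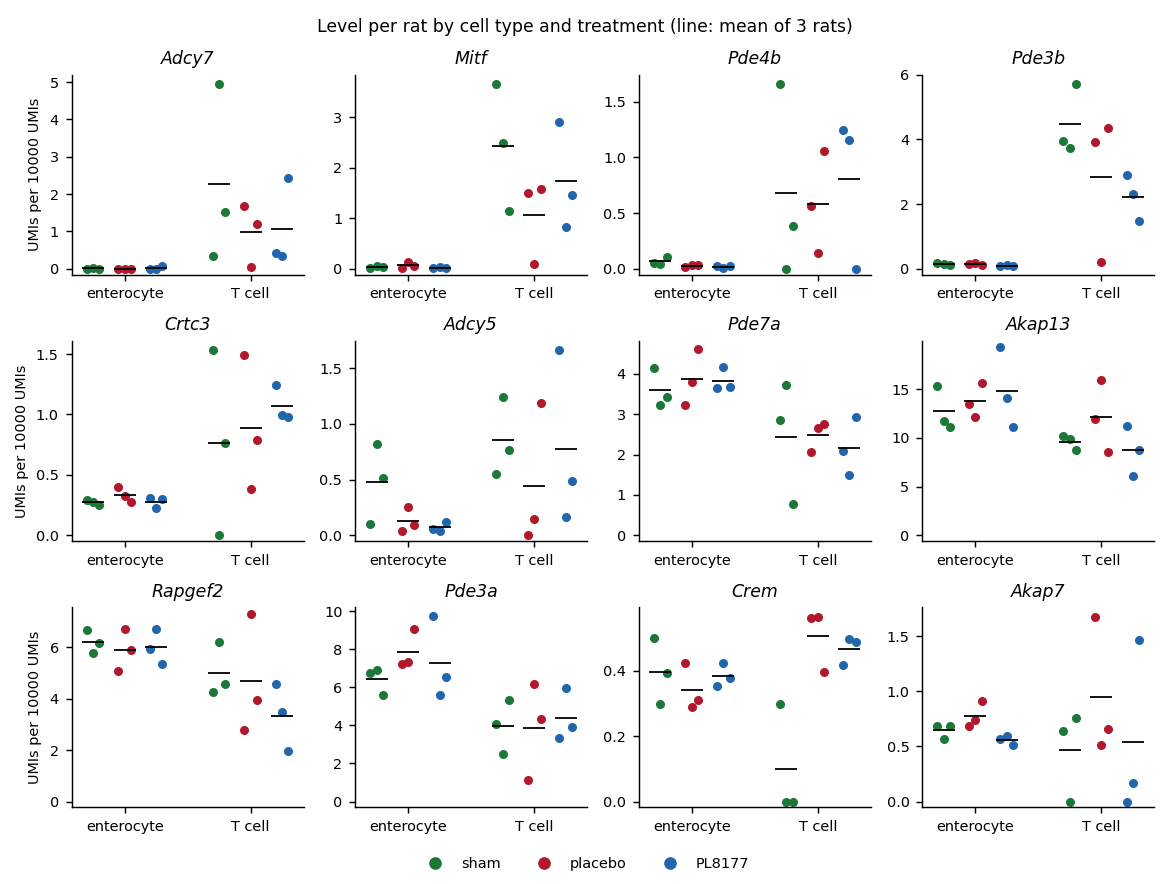
Level in UMIs per 10000 UMIs for the 12 genes with the largest differences between the cell types, 6 per direction. Each point is 1 rat, colours give the treatment and black lines the mean of 3 rats. The low placebo points of Pde3b and Mitf among T cells are GR23, whose T cell nuclei were low in T cell markers.

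At the end of the pathway, Mitf showed the clearest contrast. Its T cell levels were 3.66, 2.48 and 1.14 UMIs per 10000 in the sham rats and 2.91, 0.828 and 1.47 in the PL8177 rats, against 0.0134 to 0.0457 in the enterocyte nuclei of the same rats. In the placebo rats GR22, GR23 and GR24 the T cell levels were 1.49, 0.103 and 1.58 and the enterocyte levels 0.0183, 0.129 and 0.0468. The groups of the 6 sham and PL8177 rats did not overlap, and the log2 fold change was 5.64 ± 0.47 (edgeR adjusted p = 7.86e-31). It was 5.00 without GR12, which gave 86 of the 106 UMIs of Mitf in the T cell nuclei of these rats. These UMIs lay in 26 of 216 nuclei, 35 of them in 1 nucleus. Of the 26 nuclei 23 held a T cell marker UMI (88.5%, against 79.5% of the 190 nuclei without Mitf), and 14 held a UMI of a myeloid marker (53.8% against 8.95%). The median UMI count was 2036.5 in the former and 825.5 in the latter. All 8 myeloid markers, Csf1r among them, had UMIs in the T cell nuclei of these rats, at 0 to 7.63 per 10000 per rat against 0.432 to 1.71 in enterocyte nuclei, where 7 of 8 had UMIs and Itgax had none. Of 3 mast cell markers 2 had UMIs in T cell nuclei, at 0 to 2.98 per 10000, and Cpa3 was at 0. The part of myeloid and mast cell RNA in the level of Mitf was not tested. A UMI of a myeloid marker was about as frequent in nuclei with Pde3b (14.0%) as in those without (14.5%), likewise for Adcy7 (13.6% and 14.4%), and more frequent in nuclei with Pde4b (25.9% and 12.7%). When only T cell nuclei with T cell markers were kept, the log2 fold change of Mitf was 5.85. This filter set T cell markers against enterocyte markers only, so nuclei with myeloid or mast cell markers could pass it. It therefore does not separate their part in the level of Mitf.

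Crtc3, a coactivator of CREB, had T cell levels of 0 to 1.53 UMIs per 10000 against 0.228 to 0.305 and was higher in T cell nuclei in 5 of 6 rats (1.26 ± 0.39, edgeR adjusted p = 0.00416). Without GR12 its adjusted p was 0.120. Creb1, the founding member of the family, was higher in T cell nuclei in 6 of 6 rats but did not pass the test (0.27 ± 0.32, edgeR adjusted p = 0.507), and neither did the coactivator Crebbp (-0.13 ± 0.26, adjusted p = 0.694) or the membrane-bound Creb3l2 (0.69 ± 0.67, adjusted p = 0.410). On total UMIs Creb1 and Crebbp were called higher in T cells, at 1.05 and 0.74 (edgeR adjusted p = 0.00169 and 0.00551). Crem, which also encodes the cAMP-inducible repressor ICER, passed by edgeR with -1.18 ± 0.51 (adjusted p = 0.0443) and under none of the 16 alternatives, where the adjusted p was 0.0511 to 0.731. Its T cell levels rest on 12 UMIs. They were 0.298, 0 and 0 in the sham rats, below their enterocyte levels of 0.499, 0.297 and 0.394, and 0.416, 0.497 and 0.489 in the PL8177 rats, above their enterocyte levels of 0.352, 0.423 and 0.376. With so few UMIs, the side on which a rat lies can turn on whether a UMI was drawn.

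The nuclei of the T cell tables were also split by their own markers, a split chosen after the data were seen. In the sham and PL8177 rats, 110 of 216 nuclei had their most marker UMIs from the T cell list and 64 from the enterocyte list, 7 from the myeloid, 3 from the B cell and 1 from the mast cell list, and 31 had a tie or no marker UMI. Pooled over rats, Mitf was at 4.05 UMIs per 10000 in the T cell marker nuclei and 0.579 in the enterocyte marker nuclei, and Pde3b at 4.69 and 1.06, and Pde4b at 1.46 and 0.289. Pde3a was lower in the T cell marker nuclei, at 2.28 against 6.75. For Akap13 the level was higher in the T cell marker nuclei, at 10.8 against 7.04, although it was lower in T cells than in enterocytes between the tables. In the placebo T cell nuclei Akap13 was at 13.9 against 15.3, with intervals that overlap, and Mitf at 0.658 against 0.0618. Mitf was also at 4.20 in the 7 myeloid marker nuclei of sham and PL8177 rats and at 15.6 in the 9 of the placebo rats. These are sums over nuclei without a test, and 27 of the 164 UMIs of Pde3a lay in the 3 nuclei with B cell markers.

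**Figure D4:**
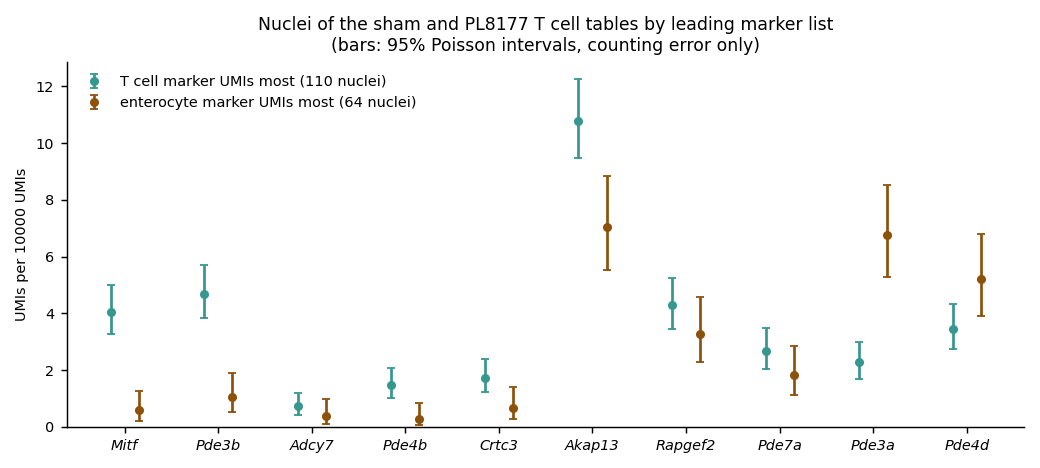
Pooled level in UMIs per 10000 UMIs for 10 genes in T cell table nuclei of sham and PL8177 rats, split by whether T cell (teal, 110 nuclei) or enterocyte markers (brown, 64 nuclei) gave the most UMIs. Bars are 95% Poisson intervals for counting error only. The intervals of Mitf, Pde3b, Pde4b, Akap13 and Pde3a do not overlap, and of these Pde3a is higher in the enterocyte marker nuclei.

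The letters of the cAMP response element (CRE) were looked for in the promoters of these genes, since CREB family factors bind this element. Promoters were taken from RefSeq (build GRCr8, 250 bases before to 50 bases after each start), and 34 of the 42 genes matched with 48 promoters. The full element TGACGTCA, a palindrome, stood in 2 of these 48 and in 1.83% of all 33469 promoters. Its 5-base core TGACG, counted on both strands and including the full elements, stood in 17 of the 48 (35.4%) and in 21.2% of all promoters. Crem was the only gene of the list with the full element, in 2 of its 3 promoters. In promoter 2 it began 56 bases before the start, and in promoter 3 it began 35 bases before the start and again at base 40 after it. Of 15 known CREB target genes 13 had a promoter in the table, and of these Areg, Dusp1, Ppargc1a and Sst held the full element. The stretches below show it in capitals in Crem and in those 3 target genes that were tested between the cell types, all on the strand of the gene and upstream of the start.
Crem, promoter 2, chr17:58984715-58984774, plus strand: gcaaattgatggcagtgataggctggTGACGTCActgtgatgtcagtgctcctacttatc
Crem, promoter 3, chr17:58985429-58985488, plus strand: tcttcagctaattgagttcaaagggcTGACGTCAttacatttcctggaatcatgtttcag
Areg, chr14:17265699-17265758, minus strand: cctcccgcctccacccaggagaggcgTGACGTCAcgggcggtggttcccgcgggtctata
Dusp1, chr10:17184703-17184762, plus strand: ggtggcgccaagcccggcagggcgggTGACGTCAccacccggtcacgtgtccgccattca
Ppargc1a, chr14:63634101-63634160, plus strand: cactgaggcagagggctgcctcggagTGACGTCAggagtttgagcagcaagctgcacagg

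Areg, a ligand of the EGF receptor, Ppargc1a, a coactivator of mitochondrial genes, and Dusp1, a phosphatase of MAP kinases, were all lower in T cells, at -3.67 ± 0.57, -3.49 ± 0.35 and -3.21 ± 0.68 (SE, edgeR adjusted p = 1.78e-09, 2.68e-21 and 1.19e-05). They share the full element with Crem, and a match of letters is not a binding site. Of the 15 CREB target genes 10 were tested and 8 called, 6 lower and 2 higher in T cells, beside 28.5% and 19.1% of all genes, with a median log2 fold change of -2.28 beside -0.15 over all genes. The 2 higher were the orphan nuclear receptor Nr4a1 (3.49 ± 0.73) and the kinase Sik1 (1.60 ± 0.58), so the list did not move in 1 direction.

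Among 47 other genes of the pathway, 30 were tested, 7 were higher and 8 lower in T cells, with a median of 0.19. These counts are near the 19.1% and 28.5% of all genes. The largest differences were Pde2a, a cGMP-stimulated phosphodiesterase (3.81 ± 0.65, edgeR adjusted p = 3.68e-08), Pkia, an inhibitor of PKA (3.52 ± 1.08, adjusted p = 0.00336, and 0.304 by DESeq2), and Creb5 (2.93 ± 0.91, adjusted p = 0.00384). In the other direction they were Gnal, a stimulatory G protein alpha subunit related to Gnas (-2.59 ± 0.47, adjusted p = 2.07e-07), the anchor Akap1 (-1.82 ± 0.40, adjusted p = 3.11e-05) and Pkig, another inhibitor of PKA (-1.75 ± 0.30, adjusted p = 5.00e-08). Of 23 other receptors that couple to the stimulatory G protein, 16 had a row and 4 were tested. Calcrl, the receptor subunit for CGRP and adrenomedullin, was higher in T cells (3.12 ± 0.77, edgeR adjusted p = 0.000213), and Adora2b, the adenosine A2B receptor of the colon epithelium, was lower (-3.25 ± 0.46, adjusted p = 1.73e-11).

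Whether these genes differed between the treatments was asked within each cell type, with the 9 rats of a cell type in 1 fit. Sham rats drank water only and have no capsules listed, so DSS and the capsules with their gavage cannot be told apart in comparisons with sham. A call needed an adjusted p below 0.05 together with a log2 fold change of more than 0.5 in size in enterocytes, or 1.5 in T cells. edgeR called none of the 24 genes tested in enterocytes and none of the 9 tested in T cells, in any of the 3 comparisons. The share called among all genes was 0% in each of these 6 comparisons too (9424 genes in enterocytes, 1828 in T cells), so the absence of a call is not particular to this list. At an unadjusted p below 0.05, 2 of the 24 genes passed for sham against placebo, 1 for PL8177 against placebo and 2 for PL8177 against sham, beside 12.4%, 9.24% and 6.59% of all genes. In T cells 0 of 9 passed, beside 4.92%, 0.985% and 1.20%. DESeq2 called 1.14%, 0.531% and 0.0424% of all genes in the 3 enterocyte comparisons and none of the 24, and it called 0 genes in T cells. Each treatment group enters 2 of the 3 comparisons of a cell type, so these are not independent.

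In enterocytes the gene with the smallest p between sham and placebo was Crebbp, the acetyltransferase that CREB recruits. Its levels were 3.12, 2.08 and 2.49 UMIs per 10000 in the sham rats, 4.21, 5.27 and 5.15 in the placebo rats and 2.95, 3.58 and 3.90 in the PL8177 rats. The placebo rats lay above all 6 others. The log2 fold change was -0.76 ± 0.22 for sham against placebo (edgeR adjusted p = 0.222), and it did not pass. Adcy5 had levels of 0.103, 0.823 and 0.518 in the sham rats, 0.0367, 0.257 and 0.0877 in the placebo rats and 0.0519, 0.0375 and 0.121 in the PL8177 rats, so that GR13 and GR15 were high and GR12 lay among the others. Its log2 fold change was 2.52 ± 0.85 for sham against placebo (edgeR adjusted p = 0.269) and -2.91 ± 0.84 for PL8177 against sham (adjusted p = 0.733).

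Crtc1, the coactivator paralogous to Crtc3, had levels of 0.0773, 0.0914 and 0.104 UMIs per 10000 in the sham rats, 0.170, 0.129 and 0.193 in the placebo rats and 0.0922, 0.0701 and 0.0403 in the PL8177 rats. Here too the placebo rats lay above the 6 others. The log2 fold change for PL8177 against placebo was -1.12 ± 0.39 (edgeR adjusted p = 0.426). Prkar2a, a regulatory subunit of PKA, stood at 0.576, 0.320 and 0.476 in the sham rats, 0.775, 0.836 and 0.672 in the placebo rats and 0.617, 0.538 and 0.323 in the PL8177 rats (-0.44 ± 0.27 for PL8177 against placebo, edgeR adjusted p = 0.664). Rapgef4 had 13, 6 and 1 UMIs in the enterocyte nuclei of sham, placebo and PL8177 rats. Its levels were 0.0129, 0.0686 and 0.124 in the sham rats, and the 1 UMI of the PL8177 rats was in GR43 (log2 fold change -4.65 ± 1.51 for PL8177 against sham, edgeR adjusted p = 0.733).

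Counting genes whose 3 rats of one treatment all lay on one side of the 3 of the other, 4 of 24 did so for sham against placebo (Pde3a, Prkar2a, Crebbp and Crtc1), beside 19.8% of all genes with at least 50 UMIs. For PL8177 against placebo there were 4 (Prkar2a, Akap7, Crebbp and Crtc1), beside 18.7%, and for PL8177 against sham there was 1 (Pde3b), beside 11.6%. The levels of the first 5 genes named were higher in the placebo rats, and that of Pde3b was lower in the PL8177 rats. Among all genes without overlap the placebo rats were also mostly the higher ones, in 1437 against 475 genes beside sham and in 1378 against 426 beside PL8177. These counts are on the scale of total UMIs, and edgeR with TMM did not show this excess. At an unadjusted edgeR p below 0.05, 616 of all genes were higher and 556 lower in sham than in placebo rats. For PL8177 against placebo 518 were higher and 353 lower. A higher placebo level on total UMIs thus depends on the scaling. The shares of the listed genes are at or below those of all genes.

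**Figure D5:**
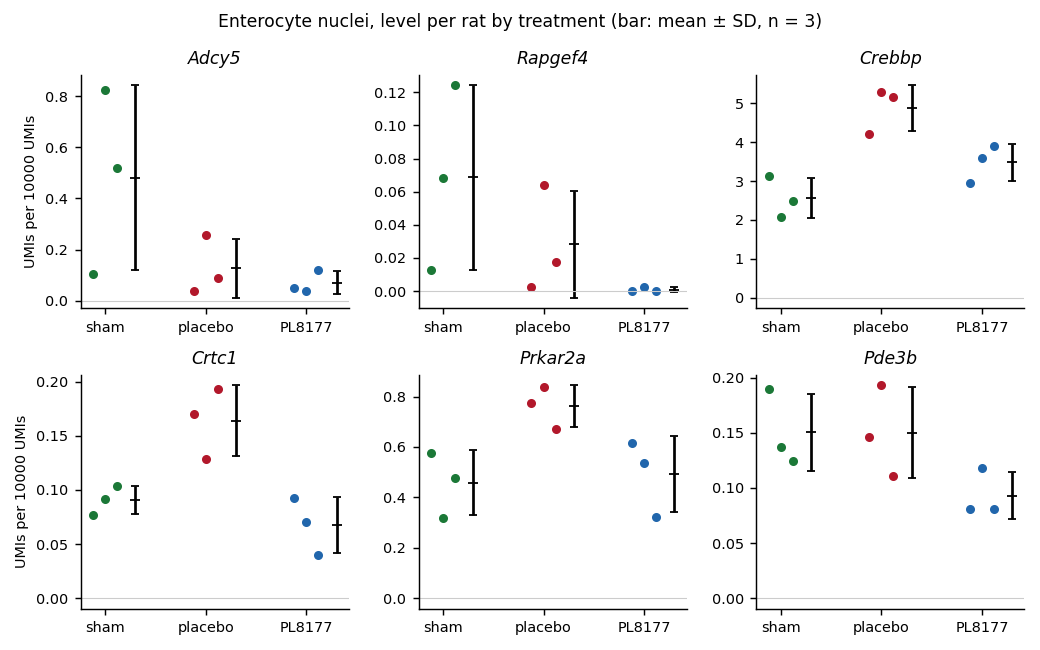
Enterocyte level in UMIs per 10000 UMIs by treatment for Adcy5, Rapgef4, Crebbp, Crtc1, Prkar2a and Pde3b. Each point is 1 rat and bars are the mean ± SD (n = 3). In the panels of Crebbp, Crtc1 and Prkar2a the 3 placebo points lie above the 6 others, though none passed the edgeR test.

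The other genes of the pathway gave no edgeR call either. DESeq2 called 5 genes of the companion lists in enterocytes, which are named here after their values were seen. For sham against placebo it called 1 of 29 other pathway genes, 1 of 4 receptors and 1 of 10 CREB target genes, beside 1.14% of all genes. For PL8177 against placebo the calls were 0, 1 and 2 of the same numbers tested, beside 0.531%. For PL8177 against sham there were 0 in each list, beside 0.0424%. The smallest adjusted p was that of Htr4, the serotonin 4 receptor that couples to the stimulatory G protein. Its enterocyte levels were 1.88, 1.12 and 1.91 UMIs per 10000 in the sham rats, 3.32, 4.08 and 5.26 in the placebo rats and 1.76, 1.93 and 1.56 in the PL8177 rats, so the placebo rats did not overlap with the others. The DESeq2 log2 fold change was -1.20 ± 0.28 (SE) for sham against placebo (adjusted p = 0.00402, edgeR 0.118) and -1.12 ± 0.27 for PL8177 against placebo (adjusted p = 0.0110, edgeR 0.239). Gnai3, an inhibitory G protein alpha subunit, was at 2.79, 3.09 and 2.61 in the sham rats and 1.84, 1.45 and 1.65 in the placebo rats (DESeq2 0.94 ± 0.24, adjusted p = 0.0150, edgeR 0.183). Areg was at 0.545, 0.354 and 0.614 in the placebo rats and 2.14, 1.07 and 0.793 in the PL8177 rats (DESeq2 adjusted p = 0.0427, edgeR 0.270). The immediate early gene Egr1 was lower in PL8177 rats (DESeq2 -2.18 ± 0.57, adjusted p = 0.0259, edgeR 0.270) and Dusp1 lower in sham rats (-1.70 ± 0.51, adjusted p = 0.0472, edgeR 0.207), each against placebo.

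In T cells the spread between rats was wide. The smallest p among the 9 genes was that of Mitf for sham against placebo, 1.42 ± 0.87 (edgeR adjusted p = 0.919), with the levels given above. Akap13 stood at 11.9, 15.9 and 8.57 UMIs per 10000 in the T cell nuclei of the placebo rats, and its log2 fold change was -0.60 ± 0.52 for sham and -0.71 ± 0.52 for PL8177, each against placebo (edgeR adjusted p = 0.963 and 0.999). Rapgef2 stood at 2.80, 7.28 and 3.96 in the placebo rats (-0.75 ± 0.55 for PL8177 against placebo and -0.47 ± 0.58 against sham). The 15.9 of Akap13, the 7.28 of Rapgef2 and the lowest placebo level of Mitf were those of GR23, whose T cell nuclei were low in T cell markers. With 1 rat left out at a time, PL8177 against placebo ranged from -1.06 to -0.0483 for Rapgef2 and from -0.97 to -0.30 for Akap13. For sham against placebo Akap13 ranged from -0.85 to -0.17. Pde3b had a log2 fold change of -0.97 ± 0.83 for PL8177 against sham (edgeR adjusted p = 0.999). For each difference given here with its SE, an interval of 2 SE holds 0. With 19 to 39 nuclei in 6 of the 9 rats, differences of this size were not detectable at this depth.

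Whether the T cell to enterocyte difference itself depended on PL8177 was tested as an interaction in the sham and PL8177 rats. None of the 25 genes passed, beside 0.0466% of all genes (4 of 8591). At an unadjusted p below 0.05 there was 1 of 25, Pde4a (-7.93 ± 3.23, edgeR adjusted p = 1), a phosphodiesterase with 12 T cell UMIs in the 3 sham rats and 0 in the 3 PL8177 rats. DESeq2 called 0 genes.

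Within the enterocyte nuclei, a marker score was used to ask whether the pathway differed between crypt and surface. Only 123 nuclei held more crypt than surface marker UMIs, 0 to 37 per rat with none in GR13, against 8279 with more surface marker UMIs. In all, 951 nuclei lay within 1 UMI of the boundary, so these are ranges of a score and not cell types. Akap13 was lower in the crypt range in 8 of 8 rats, at a pooled 5.20 UMIs per 10000 (95% Poisson interval for counting error only, 3.83 to 6.89) against 14.8 (14.6 to 14.9), and Pde7a in 8 of 8 rats, at 1.95 against 3.88. Pde4d was higher in 6 of 8 rats, at a pooled 5.74 (4.30 to 7.50) against 1.92 (1.85 to 1.98). Most genes with pooled intervals apart were higher in the crypt range. Besides Pde4d these were Adcy6, Pde3b, Pde4a, Prkacb, Prkar2a, Akap7, Creb1, Crebbp and Crtc3, each higher in 3 to 6 of 8 rats. Only Akap13, Pde7a and Rapgef2 (2.81 against 6.09, lower in 6 of 8 rats) were lower with intervals apart. The median nucleus had 482 UMIs in the crypt range and 1137 in the surface range. With nuclei thinned to 300 UMIs Akap13 was at 6.06 against 13.0, lower in 9 of 9 rats. The crypt range then held 143 nuclei, 1 to 40 per rat, with 26 UMIs of Akap13. Before thinning it held 48 UMIs of Akap13 and 18 of Pde7a. A rat with few crypt range nuclei can lie lower only because no UMI was drawn, so these counts of rats carry little weight. Pde4d was at 4.90 against 2.16, higher in 5 rats and lower in 4. Pde7a was at 2.56 (1.28 to 4.59) against 3.15 (2.92 to 3.40), and its intervals overlapped.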

How the data were processed

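The authors generated UMI counts per gene and nucleus with Cell Ranger 6.0.1 on the rat reference Rnor 6.0, introns included, removed empty droplets with CellBender, set minimums of 3 cells per gene and 200 genes per nucleus and a mitochondrial limit of 5%, and clustered and named the nuclei in Seurat 4.0.3. They deposited these counts unnormalized in 6 tables. The genes and the companion lists were chosen with earlier results of these data known. The placebo T cell table breaks off within a gene, and its 1 incomplete line was left out, so levels and T cell treatment tests use the 15108 shared genes. Sums of UMIs over the nuclei of each rat and cell type were tested, because nuclei are not replicates. edgeR 4.0.16 (R 4.3.3) used TMM, filterByExpr and the quasi-likelihood test, and DESeq2 1.42.0 was the alternative. The rat was a block between cell types, since both come from the same animal; deviations of the cell types from their treatment means correlated at 0.0545 to 0.230 within the 6 rats. Treatments hold different rats. Scripts were tested on simulated data. For sham against placebo at a log2 fold change of 1, edgeR recovered 0% and DESeq2 9.0% of the changed genes in enterocytes. In T cells they recovered 0% and 0.5%. At a log2 fold change of 3 the shares were 85.5% and 88.5% in enterocytes and 70.5% by either tool in T cells.

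Values per rat were printed for the receptors, Pomc, Mrap, Mrap2, Gnas and Mitf, up to 6 genes per direction between the cell types, and the 2 smallest p per treatment comparison. Scrublet called 64 of 9800 nuclei doublets (0.653%), 9 of them T cell nuclei. They were kept. At most 1 barcode was shared by any of the 36 pairs of libraries. T cell marker nuclei were those with 1 or more T cell marker UMIs and at most as many from enterocyte markers. Thinning to 300 UMIs left out 12, 44 and 7 T cell nuclei and 275, 125 and 238 enterocyte nuclei of sham, placebo and PL8177 rats. The sources used here do not say whether strand was used in counting.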

Additional observations from a re-analysis of the deposited data

Results flagged for a closer look

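Crem stood out because its T cell and enterocyte levels were ordered in opposite ways in the sham and the PL8177 rats. The T cell minus enterocyte difference averaged -0.30 UMIs per 10000 in the 3 sham rats, each of them below 0, and 0.0835 in the 3 PL8177 rats, each of them above 0. The T cell levels rest on 7 and 5 UMIs. Those of the sham rats were all of GR12, since GR13 and GR15 had none among 8070 and 26229 T cell UMIs. At such depth the side of a rat can turn on whether a UMI was drawn, so this order is not agreement between rats. The interaction test across all genes did not call Crem (edgeR adjusted p = 1).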

How the results depend on the processing

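Between T cells and enterocytes, 14 of the genes were called, and 11 by DESeq2, 14 without a filter on low counts, 11 in nuclei with at least 500 genes, 12 without doublets, 14 in T cell marker nuclei, 13 with all 9 rats, 13 without GR23 and 14 on total UMIs, an alternative added after the data were seen. Of all 8591 genes tested, edgeR called 4083 and DESeq2 3383. The share of all genes is not given here for the other settings, so their counts cannot be set against it. The listed genes called were not always the same. The 14 on total UMIs share 10 with the first 14, without Adcy6, Pde8a, Akap7 and Crem and with Pde4d, Prkacb, Creb1 and Crebbp, all higher in T cells. The 14 in T cell marker nuclei share 13, with Prkar2b for Crem, and the 11 by DESeq2 share 10, with Prkacb. Leaving out the rat block gave 11. Leaving out 1 rat gave 10 to 13. The count was 9 in sham rats only and 8 in PL8177 rats only, where 3 rats were fitted. Each of the 14 genes was refitted under 16 or 17 alternatives on overlapping data, which gave 236 values. None of these values changed sign, and 51 lost the call, all of them of Crtc3, Adcy5, Crem, Akap7, Adcy6 or Pde8a. In the 6 treatment comparisons and in the interaction no gene of the list was called under any alternative run. With nuclei thinned to 300 UMIs, 1 of the receptor, ligand and accessory genes kept a UMI in enterocyte nuclei (Mrap2) instead of 2, and 2 instead of 13 genes had intervals that did not overlap between the crypt and surface ranges. These intervals are pooled over rats and cover counting error only. The ranges were compared for the listed genes only, so no share of all genes stands beside the 13 or the 2.

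Depth limits the T cell results, where 9 of the listed genes could be tested between treatments and 3 UMIs in the shallowest rat are a level of 3.72 UMIs per 10000, as does the makeup of the T cell nuclei. The rat tags are not in the sample labels, and nothing says that rats of a treatment were processed apart, so the p-values measure the spread between these libraries. No paired analysis was possible because the rats of different treatments share no number.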
